A study of Homo sapiens with 15 samples.

Results

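The integrated stress response genes under the transcription factor ATF4 were followed as a set of 33 genes in HaCaT cells given silver sulfide nanoparticles. The genes were chosen by symbol for their known place in this response, with earlier results of these data known. All 33 were found in both deposited tables of 9 libraries, among 17214 genes present in both tables and 18179 present in either. They comprise 8 stress transcription factors, 6 regulators of feedback, redox state and mTOR, 3 genes of secreted factors and a receptor, 9 amino acid transporters, and 7 genes of amino acid enzymes and tRNA export. HaCaT is an immortalized line of human epidermal keratinocytes. The 5 groups of 3 libraries each were Li-doped Ag2S NPs (silver sulfide nanoparticles with added lithium) at 320 μg/mL (replicates 13, 14 and 15) and at 160 μg/mL (replicates 10, 11 and 12), undoped Ag2S NPs at 320 μg/mL (replicates 7, 8 and 9) and at 160 μg/mL (replicates 4, 5 and 6), each for 24 h, and untreated control cells (replicates 1, 2 and 3). The particles emit in the near infrared, and the series looked at how each kind alters gene expression in keratinocytes. Below, 160 and 320 stand for doses in μg/mL. All libraries came from 1 cell line, none received lithium without silver sulfide, and whether lithium itself or a property of the doped particle goes with a difference cannot be told apart in this design.

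In the integrated stress response, kinases that sense a shortage of amino acids, misfolded protein in the endoplasmic reticulum, double-stranded RNA or a lack of heme phosphorylate the translation factor eIF2. General protein synthesis then slows, while the mRNA of ATF4 is translated better through upstream reading frames in its leader. ATF4 pairs with C/EBP family partners and turns on genes that import amino acids, make them, charge and move tRNA, and later dampen the response or favour cell death. The level of ATF4 mRNA is therefore only part of its control, and neither eIF2 phosphorylation nor ATF4 protein was measured in the data used here.

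ATF4 with a C/EBP partner recognises a composite element whose core reads TGATGCAA. The 5 member windows that hold this core are shown, together with the ASNS window, which holds only a looser form. The genes beside them include CHAC1 and ASNS, which had some of the largest rises, and SLC1A4, which hardly separated the particles. RefSeq windows (GRCh38.p14) of 300 bases, from 250 bases before a start to 50 bases after it, were found for 28 of the 33 members in 48 start windows. NUPR1, EIF4EBP1, SLC7A11, GPT2 and PYCR1 were not matched. The core, read on both strands (TGATGCAA or TTGCATCA), was present in 5 of the 48 member windows, each of another gene, and in 0.866% of all 35116 start windows. Counted by gene, 5 of the 28 members and 1.08% of 27305 genes had it in at least 1 window. The looser form TGATGNAA (or TTNCATCA), which includes the core, was present in 9 of the 48 member windows and 3.617% of all windows, and by gene in 9 of the 28 members and 4.457% of all genes. The added members were ATF3, ASNS, SLC3A2 and SLC7A1, of which only ASNS is shown. The sequences run 5′ to 3′ on the strand of the gene, with the element in capitals.
CHAC1: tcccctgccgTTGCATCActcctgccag
CEBPG: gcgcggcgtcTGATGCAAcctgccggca
JDP2: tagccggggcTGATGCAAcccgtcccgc
SLC1A4: cggctcccgtTTGCATCAtctccagccg
SLC1A5: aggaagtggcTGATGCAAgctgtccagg
ASNS: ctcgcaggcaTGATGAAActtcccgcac
The first letter of the element lay 209 bases before the start for CHAC1 (chr15:40953252-40953279, plus strand), 42 for CEBPG (chr19:33374061-33374088, plus strand) and 16 for JDP2 (chr14:75427996-75428023, plus strand). It lay 7 bases before the start for SLC1A4 (chr2:64989382-64989409, plus strand), 97 for SLC1A5 (chr19:46784894-46784921, minus strand) and 68 for ASNS (chr7:97872459-97872486, minus strand), where the letters are TGATGAAA. CHAC1 has 1 start window, CEBPG, SLC1A4 and ASNS have 2 each, and JDP2 and SLC1A5 have 3 each. Each distance is from the start whose window holds the element, and the other windows of these genes lack it. The whole CHAC1 and ASNS stretches fall within exons of GENCODE release 29, while those of CEBPG and JDP2 touch none. A match describes the letters only, and binding was not measured.

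Values were deposited as FPKM (fragments scaled to transcript length and to the total of the library), and the number of reads behind them is unknown. A log2 fold change here is a difference of group means of log2(FPKM + 0.1), followed by ± and its standard error from limma, and the change of a gene near 0 comes out smaller on this scale than in FPKM. Adjusted p is the Benjamini and Hochberg value from the same limma fit over all genes whose mean reached 1 FPKM. A gene with an adjusted p under 0.05 is said to have risen or fallen. The labels do not tell whether the 3 libraries of a group came from separate cultures, so a p-value measures the spread between these libraries. All comparisons with control use the same 3 control libraries. The median log2 fold change over all genes tested was -0.26 with Li-doped and -0.19 with undoped Ag2S NPs at 320, and -0.19 with Li-doped and -0.14 with undoped Ag2S NPs at 160. Counts after scaling by median ratio, which brings these medians to between -0.01 and 0.01, are therefore given beside those of the deposited values. Summed FPKM per library ran from 582451 to 698579, with replicate 15 of Li-doped Ag2S NPs at 320 highest and farthest from the other libraries of its group. All 10 keratinocyte markers were present, with a summed FPKM of 9433 to 9795 in control. The sum was 25967 to 31457 with Li-doped Ag2S NPs at 320 and 12104 to 14781 with Li-doped Ag2S NPs at 160. With undoped Ag2S NPs it was 14754 to 16671 at 320 and 14077 to 15562 at 160. Summed endothelial and fibroblast markers were lower in treated cells (0.15 to 0.81 and 2.11 to 7.9) than in control (3.47 to 4.01 and 13.08 to 16.2), with 4 of 5 endothelial and 4 of 7 fibroblast markers under 1 FPKM in every library. The part of these markers in the results was not tested.

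With Li-doped Ag2S NPs at 160, nearly the whole set moved upward. Of the 32 members tested, 27 rose and 3 fell relative to control, with a median log2 fold change of 1.57. Of all 11987 genes tested, 22.6% rose and 40.6% fell. After scaling, 28 members rose and 2 fell, where 30.5% and 30.2% of all genes did. The rises of 22 members, GDF15 and CBS among them, were larger than 1 on the log2 scale. The share of all genes with such a rise was not counted. GDF15 and CBS passed the filter only because they were high in this group, and without them 25 of 30 members rose and 3 fell, with a median of 1.52. The rises covered 6 of 8 stress transcription factors, 5 of 6 regulators, both tested secreted factors, 7 of 9 transporters and 7 of 7 genes of enzymes and tRNA export. Without GDF15 and CBS, 1 of 1 secreted factor and 6 of 6 genes of enzymes and tRNA export rose. Among the 11987 genes tested, CHAC1 had the 7th highest log2 fold change, ASNS the 24th and SLC7A11 the 44th. Genes that passed the filter through a single group, such as GDF15, were kept in this ranking. The group means of 27 of the 33 members, GDF15, CBS and VLDLR among them, were highest in these 3 libraries. The share of all genes with their highest mean there was not counted. No member had its highest mean with Li-doped Ag2S NPs at 320. Summed leukocyte markers, of which 2 of 4 stayed under 1 FPKM in every library, were also highest with Li-doped Ag2S NPs at 160 (25.84 to 29.36), against 11.1 to 12.08 in control. Most of this sum was CD68, a gene of lysosomes, and its part in the result was not tested. Summed melanocyte markers, 3 of 4 of which stayed under 1 FPKM in every library, were 3.07 to 3.34 in this group, against 1.74 to 1.96 in control, and their part was not tested either.

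The other treatments gave a mixed picture. With undoped Ag2S NPs at 160, 6 of 32 tested members rose and 7 fell (median 0.03), where 11.5% of all genes rose and 23.8% fell. After scaling, 8 rose and 5 fell, where 17.2% and 12.8% of all genes did. With Li-doped Ag2S NPs at 320, 16 of 30 tested members rose and 5 fell (median 0.47), where 17% of all genes rose and 44.6% fell. After scaling, 21 rose and 3 fell, where 28.3% and 26% of all genes did. Without replicate 15, 17 rose and 5 fell. With undoped Ag2S NPs at 320, 8 members rose and 9 fell (median 0.02), where 16.2% and 36.2% of all genes did. After scaling, 12 rose and 6 fell, where 24.1% and 21.4% of all genes did. SLC43A1 passed the filter at 320 only through the Li-doped libraries, and without it 15 of 29 members rose with Li-doped and 8 with undoped Ag2S NPs.

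**Figure D1:**
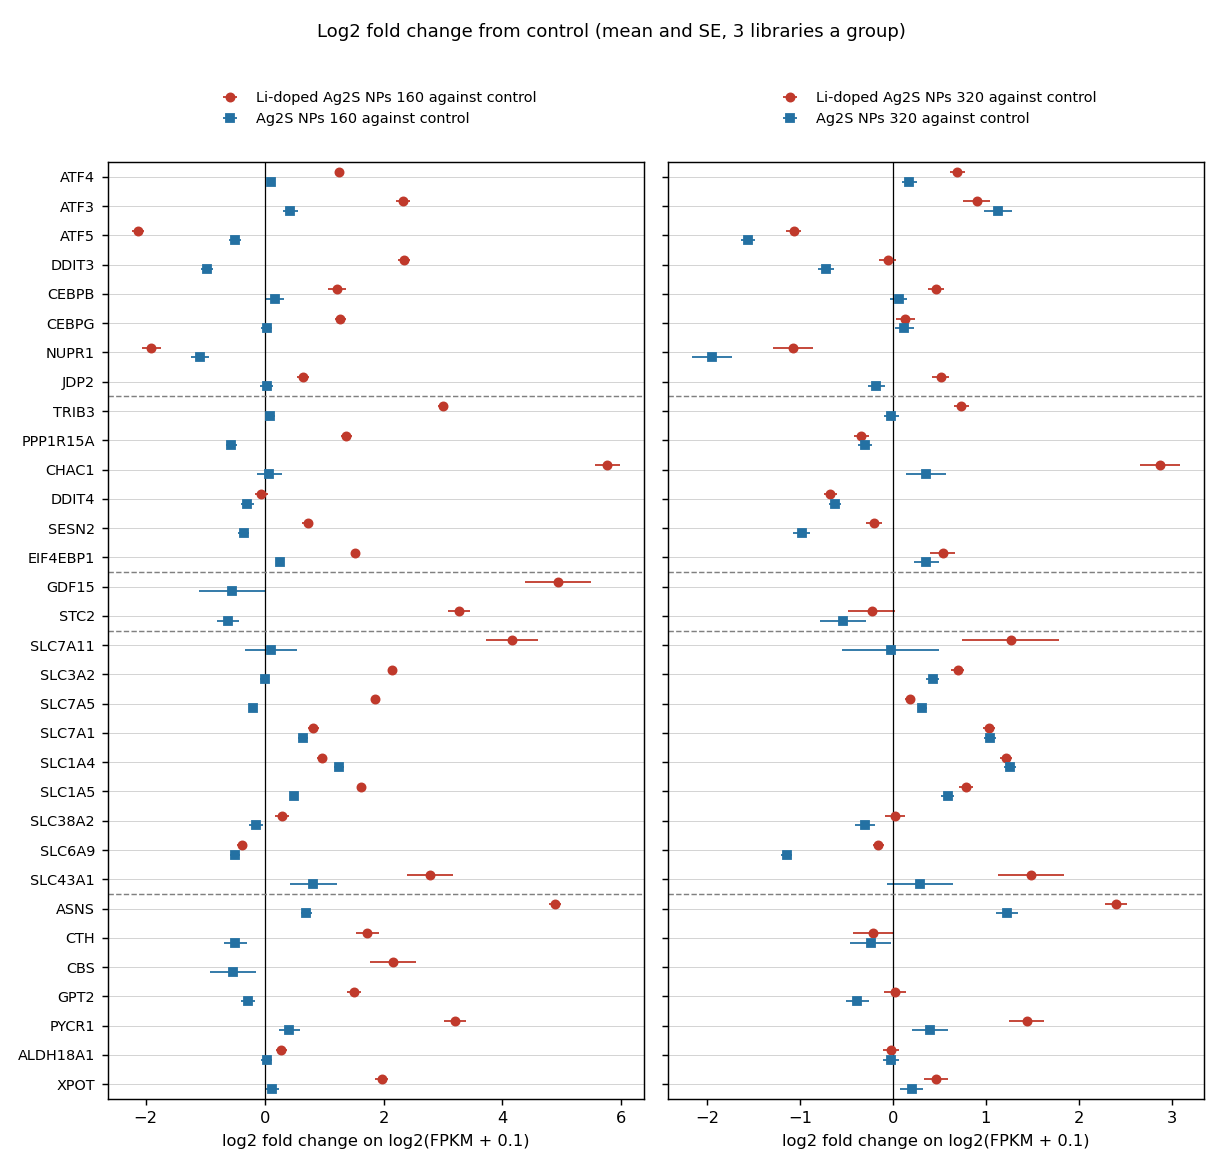
Log2 fold change of each tested member against control on log2(FPKM + 0.1), with the standard error from limma, at 160 μg/mL (left) and 320 μg/mL (right), for Li-doped Ag2S NPs (red circles) and undoped Ag2S NPs (blue squares). Dashed lines separate the roles. At 160 the Li-doped points of 27 members lie right of 0 past the test, up to 5.76 for CHAC1, while at 320 the largest is 2.87. GDF15 and CBS have no point at 320 and VLDLR has none, because they were below the filter.

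Among the stress transcription factors, ATF4 itself, the activator of the program, rose with Li-doped Ag2S NPs at both doses. ATF4 (chr22:39519695-39522685, GRCh38 in GENCODE) had 582, 575 and 544 FPKM with Li-doped Ag2S NPs at 160 and 260.1, 255 and 253 with undoped Ag2S NPs at 160, against 231, 237 and 245 in control. At 320 it had 370.3, 354 and 433 FPKM with Li-doped and 252, 271 and 285 with undoped Ag2S NPs. The Li-doped groups lay above control and above the undoped groups with no overlap. The log2 fold change against control was 1.25 ± 0.06, adjusted p = 1.89e-08 at 160 and 0.69 ± 0.08, adjusted p = 2.64e-05 at 320 with Li-doped Ag2S NPs (limma). For undoped Ag2S NPs it was 0.11 ± 0.06, adjusted p = 0.166 at 160 and 0.18 ± 0.08, adjusted p = 0.0811 at 320 (limma). After scaling, both undoped values passed the test (0.25 and 0.36, adjusted p = 0.0117 and 0.0203 from limma). The 320 value also passed when replicate 15 was left out (log2 fold change 0.18, adjusted p = 0.0142). In order of level, ATF4 was highest with Li-doped Ag2S NPs at 160, next with Li-doped Ag2S NPs at 320, and the undoped groups at 320 and 160 overlapped each other.

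DDIT3 (CHOP), which ATF4 induces and which promotes cell death when stress lasts, was the factor with the largest difference between the particles at 160. It had 179, 177 and 144 FPKM with Li-doped Ag2S NPs at 160 and 16.01, 17.9 and 15.96 with undoped Ag2S NPs, against 30.7, 34.9 and 32.2 in control. At 320 it had 31.9, 31.7 and 30.2 FPKM with Li-doped and 17.8, 20.2 and 21.6 with undoped Ag2S NPs. It thus stood far above control with the doped particle at 160 and below control with the undoped particle at both doses. Its log2 fold change was 2.34 ± 0.10, adjusted p = 9.8e-09 with Li-doped and -0.97 ± 0.10, adjusted p = 6e-05 with undoped Ag2S NPs at 160 (limma). At 320 it was -0.06 ± 0.09, adjusted p = 0.589 with Li-doped and -0.72 ± 0.09, adjusted p = 4.84e-05 with undoped Ag2S NPs (limma). Of the exon bases of DDIT3 (chr12:57516588-57521737), 39.6% are shared with other annotated genes, mostly the methionyl-tRNA synthetase gene MARS on the opposite strand. MARS averaged 114 FPKM with Li-doped and 26.9 with undoped Ag2S NPs at 160, 38.8 with Li-doped and 28.4 with undoped Ag2S NPs at 320, and 32.6 in control. The means of both genes were thus highest with Li-doped Ag2S NPs at 160 and below control with undoped Ag2S NPs. With Li-doped Ag2S NPs at 320, MARS averaged above control while DDIT3 overlapped control. Whether strand was used in counting is not given in the sources used here, and the part of MARS reads in these values was not tested.

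ATF3, a factor induced downstream of ATF4 that mostly represses its targets, rose with both particles. It had 20.5, 22.4 and 21.96 FPKM with Li-doped and 5.81, 5.93 and 5.46 with undoped Ag2S NPs at 160, against 3.84, 4.98 and 3.93 in control. At 320 ATF3 had 9.42, 6.97 and 7.69 with Li-doped and 8.98, 9.25 and 9.9 with undoped Ag2S NPs. Its log2 fold changes were 2.33 ± 0.12, adjusted p = 5.1e-08 with Li-doped and 0.43 ± 0.12, adjusted p = 0.0194 with undoped Ag2S NPs at 160 (limma). The undoped rise at 160 did not pass when any 1 of replicates 1, 3 and 5 was left out (log2 fold change 0.37 to 0.41, adjusted p 0.0565 to 0.0729). At 320 they were 0.90 ± 0.15, adjusted p = 0.000335 with Li-doped and 1.13 ± 0.15, adjusted p = 7.76e-05 with undoped Ag2S NPs (limma). ATF3 therefore followed opposite dose orders with the doped and undoped particles, with the higher value at 160 for the doped and at 320 for the undoped one. CEBPB and CEBPG, C/EBP proteins that can pair with ATF4, both rose with Li-doped Ag2S NPs at 160. CEBPB ranged over 76.5 to 101 FPKM with Li-doped and 32.7 to 49.01 with undoped Ag2S NPs at 160, against 34.03 to 41.6 in control (log2 fold change 1.22 ± 0.15, adjusted p = 4.77e-05 with Li-doped and 0.18 ± 0.15, adjusted p = 0.388 with undoped Ag2S NPs, limma). The undoped CEBPB value passed when replicate 4 was left out (log2 fold change 0.36, adjusted p = 0.0428). CEBPG had 24.4, 24.2 and 24 FPKM with Li-doped and 10.3, 11.03 and 9.28 with undoped Ag2S NPs, against 9.86, 10.6 and 9.44 in control (log2 fold change 1.28 ± 0.09, adjusted p = 6.94e-07 with Li-doped and 0.03 ± 0.09, adjusted p = 0.804 with undoped Ag2S NPs, limma). At 320 CEBPB rose with Li-doped Ag2S NPs (0.46 ± 0.09, adjusted p = 0.00107, limma), and CEBPG was at 0.14 ± 0.10, adjusted p = 0.266 (limma), a value that passed after scaling (0.39, adjusted p = 0.003). JDP2, a repressor of the AP-1 family, has the core element in 1 of its 3 promoter windows. It had 28.1, 30.96 and 30.01 FPKM with Li-doped and 18.4, 22.4 and 17.6 with undoped Ag2S NPs at 160, against 20.5, 17.4 and 18.9 in control. At 320 JDP2 had 26.5, 27.3 and 27.3 with Li-doped and 15.9, 15.7 and 18.6 with undoped Ag2S NPs. JDP2 rose with the doped particle at both doses, by 0.65 ± 0.11, adjusted p = 0.000286 at 160 and 0.52 ± 0.09, adjusted p = 0.000642 at 320 (limma).

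**Figure D2:**
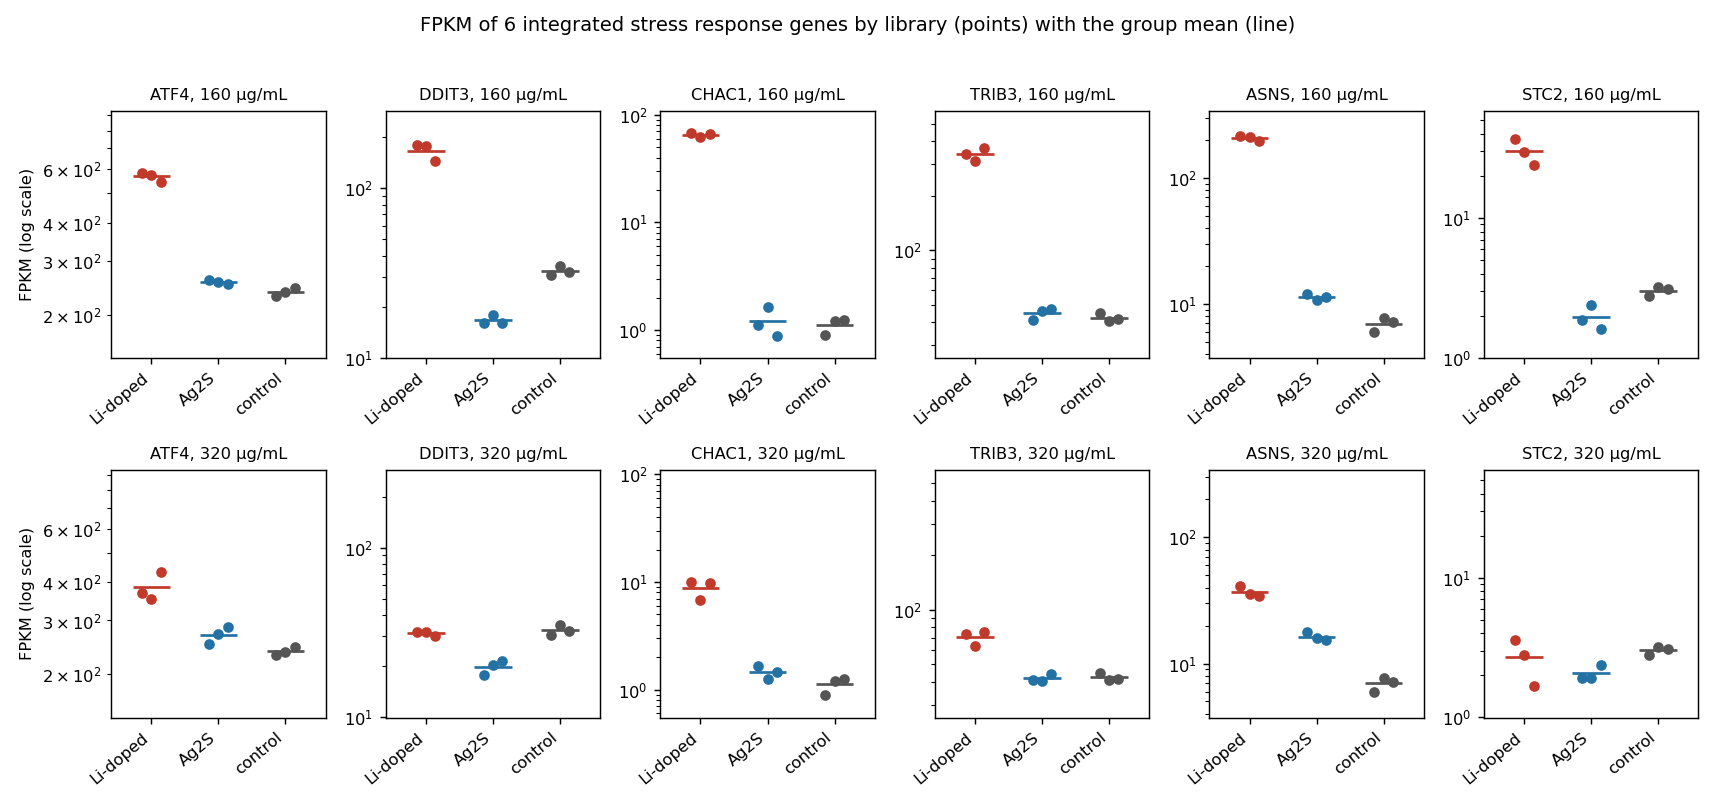
FPKM (log scale) of ATF4, DDIT3, CHAC1, TRIB3, ASNS and STC2 in each library (points) with the group mean (line), for Li-doped Ag2S NPs, undoped Ag2S NPs and control, at 160 μg/mL (upper row) and 320 μg/mL (lower row); the control libraries are the same in both rows. In all 6 genes the 3 Li-doped libraries at 160 lie above every other library, from 144 to 179 FPKM for DDIT3 and from 197 to 213 FPKM for ASNS.

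ATF5 and NUPR1 went down, although both are known to rise with ATF4 in other settings. ATF5, an activating factor related to ATF4, had 8.75, 10.7 and 10.4 FPKM with Li-doped and 29.8, 33.5 and 29.6 with undoped Ag2S NPs at 160, against 43.6, 46.3 and 41.6 in control. At 320 ATF5 had 21.1, 20.3 and 21.2 with Li-doped and 14.4, 14.3 and 15.7 with undoped Ag2S NPs. All 4 treated groups lay below control without overlap. ATF5 fell by 2.13 ± 0.10 with Li-doped and 0.50 ± 0.10 with undoped Ag2S NPs at 160 on the log2 scale (limma adjusted p = 1.77e-08 and 0.00316). At 320 it fell by 1.07 ± 0.08 with Li-doped (limma adjusted p = 6.69e-07) and 1.56 ± 0.08 with undoped Ag2S NPs (limma adjusted p = 3.89e-08). ATF5 shares 23.7% of its exon bases with genes beside it, mostly NUP62 on the opposite strand, which averaged 36.0 FPKM with Li-doped and 37.6 with undoped Ag2S NPs at 160 and 42.3 in control. IL4I1, which overlaps ATF5 by fewer bases, averaged 0.347 FPKM with Li-doped and 2.09 with undoped Ag2S NPs at 160, 1.13 with Li-doped and 0.873 with undoped Ag2S NPs at 320, and 4.35 in control, so it was lower in the treated groups as ATF5 was. The part of these genes' reads in the ATF5 values was not tested. NUPR1, a small stress-induced nuclear protein, had 2.65, 2.15 and 2.3 FPKM with Li-doped and 3.86, 4.17 and 4.64 with undoped Ag2S NPs at 160, against 9.17, 7.88 and 10.4 in control. At 320 NUPR1 had 4.39, 4.52 and 3.93 with Li-doped and 1.66, 2.24 and 3.24 with undoped Ag2S NPs. Its log2 fold changes were -1.90 ± 0.15, adjusted p = 1.48e-06 with Li-doped and -1.09 ± 0.15, adjusted p = 0.00052 with undoped Ag2S NPs at 160 (limma). At 320 they were -1.07 ± 0.21, adjusted p = 0.0013 with Li-doped and -1.94 ± 0.21, adjusted p = 2.33e-05 with undoped Ag2S NPs (limma). In both genes the doped particle gave the lower level at 160 and the undoped particle the lower level at 320.

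**Figure D3:**
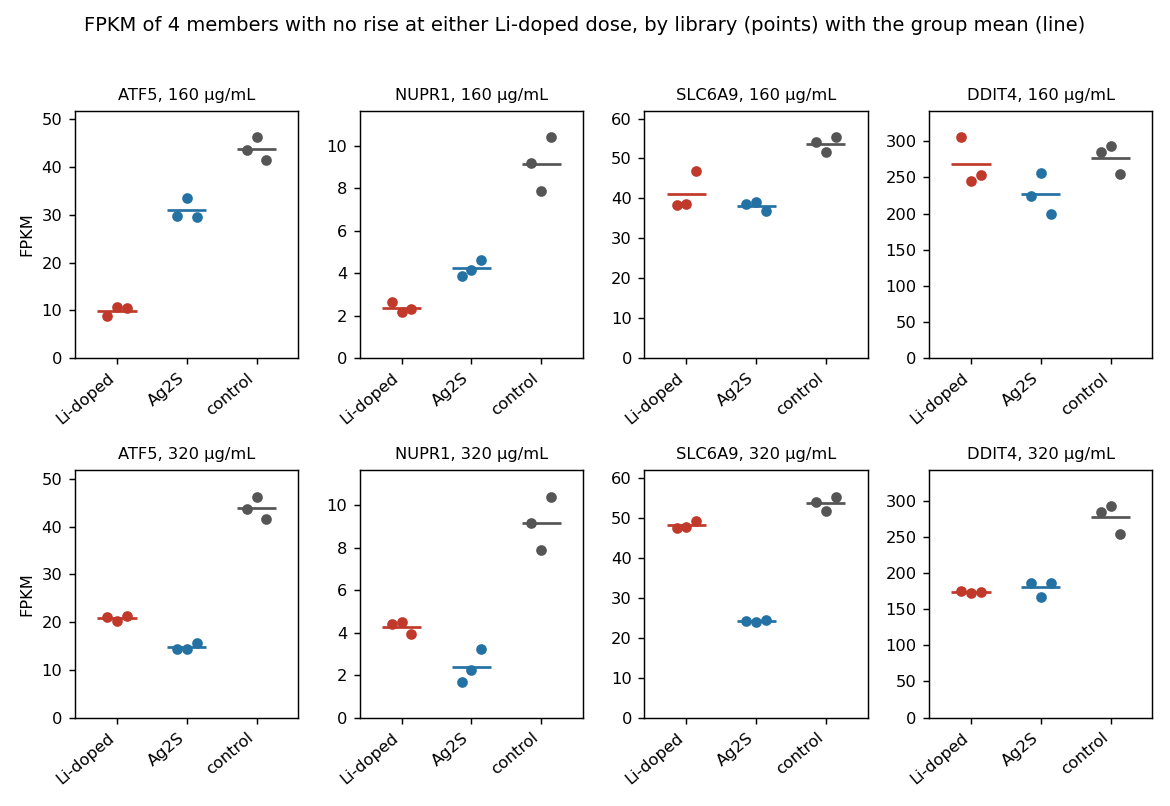
FPKM (linear scale) of ATF5, NUPR1, SLC6A9 and DDIT4 in each library (points) with the group mean (line), for Li-doped Ag2S NPs, undoped Ag2S NPs and control, at 160 μg/mL (upper row) and 320 μg/mL (lower row); the control libraries are the same in both rows. ATF5, NUPR1 and SLC6A9 lie below control in all 4 treated groups and DDIT4 does so only at 320, though SLC6A9 with Li-doped Ag2S NPs at 320 turns to a log2 fold change of 0.10 after scaling.

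The regulators that act back on the response gave some of the largest rises. CHAC1, an enzyme that degrades glutathione and is among the most ATF4-responsive genes known, had 68.1, 62.04 and 66.1 FPKM with Li-doped and 1.11, 1.65 and 0.88 with undoped Ag2S NPs at 160, against 0.89, 1.21 and 1.25 in control. At 320 it had 9.99, 6.85 and 9.72 with Li-doped and 1.64, 1.25 and 1.47 with undoped Ag2S NPs. Both doped groups lay far above control, and the undoped group at 160 overlapped it. The log2 fold change was 5.76 ± 0.21, adjusted p = 4.18e-09 with Li-doped and 0.08 ± 0.21, adjusted p = 0.781 with undoped Ag2S NPs at 160 (limma). At 320 it was 2.87 ± 0.21, adjusted p = 9.76e-07 with Li-doped and 0.36 ± 0.21, adjusted p = 0.182 with undoped Ag2S NPs (limma). TRIB3, a pseudokinase that restrains ATF4 and DDIT3, had 341, 313 and 369.6 FPKM with Li-doped and 41.01, 46.2 and 47.7 with undoped Ag2S NPs at 160, against 44.8, 40.8 and 41.5 in control. At 320 TRIB3 had 74.02, 63.4 and 75.2 with Li-doped and 40.8, 40.7 and 44.3 with undoped Ag2S NPs. It rose by 3.01 ± 0.08, adjusted p = 6.16e-10 at 160 and 0.74 ± 0.08, adjusted p = 1.75e-05 at 320 with Li-doped Ag2S NPs (limma), while the undoped values at 160 and 320 were 0.08 and -0.02 (adjusted p = 0.453 and 0.888 from limma).

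PPP1R15A (GADD34), the phosphatase subunit that removes the phosphate from eIF2, rose with Li-doped Ag2S NPs at 160 and in no other group. It had 64.1, 56.6 and 56.2 FPKM with Li-doped and 15.8, 16.7 and 13.7 with undoped Ag2S NPs at 160, against 22.1, 23.4 and 22.4 in control. At 320 PPP1R15A had 16.9, 18.8 and 17.99 with Li-doped and 18.3, 19.2 and 17.7 with undoped Ag2S NPs. The log2 fold change was 1.38 ± 0.09, adjusted p = 3.28e-07 with Li-doped and -0.56 ± 0.09, adjusted p = 0.00127 with undoped Ag2S NPs at 160 (limma). At 320 both values were negative (-0.34 ± 0.08, adjusted p = 0.00316 with Li-doped and -0.30 ± 0.08, adjusted p = 0.00792 with undoped Ag2S NPs, limma), but neither fall passed after scaling (-0.08 and -0.12, adjusted p = 0.421 and 0.255). SESN2, a sestrin that holds back mTORC1 when leucine is short, had 30.9, 30.3 and 33.95 FPKM with Li-doped and 14.9, 16.4 and 13.7 with undoped Ag2S NPs at 160, against 19.3, 19.1 and 18.99 in control. At 320 SESN2 had 17.7, 15.5 and 16.8 with Li-doped and 9.68, 9.21 and 10.1 with undoped Ag2S NPs. SESN2 rose with the doped particle at 160 (0.72 ± 0.09, adjusted p = 3.23e-05, limma) and fell with the undoped particle at 320 (-0.98 ± 0.09, adjusted p = 4.11e-06, limma). Its fall with undoped Ag2S NPs at 160 (-0.35 ± 0.09, adjusted p = 0.0108, limma) did not pass after scaling (-0.21, adjusted p = 0.11).

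EIF4EBP1, a repressor of cap-dependent translation, ranged over 129 to 145 FPKM with Li-doped and 55.8 to 61.3 with undoped Ag2S NPs at 160, against 45.7 to 49.9 in control. At 320 EIF4EBP1 ranged over 59.1 to 85.6 with Li-doped and 51.9 to 69.1 with undoped Ag2S NPs. Its rises with Li-doped Ag2S NPs were 1.53 ± 0.07, adjusted p = 2.59e-08 at 160 and 0.54 ± 0.13, adjusted p = 0.00491 at 320 (limma). With undoped Ag2S NPs they were 0.26 ± 0.07, adjusted p = 0.019 at 160 and 0.36 ± 0.13, adjusted p = 0.0417 at 320 (limma). The 160 call was lost when replicate 1 was left out (log2 fold change 0.22, adjusted p = 0.0786) and the 320 call when any 1 of replicates 1, 2, 3, 8, 9 and 13 was left out (log2 fold change 0.28 to 0.38, adjusted p 0.0544 to 0.148). DDIT4 (REDD1), an mTORC1 inhibitor, was the only one of these 6 regulators without a rise at 160. It had 306, 244 and 254 FPKM with Li-doped and 224, 257 and 199 with undoped Ag2S NPs at 160, against 285, 293 and 254 in control, and both overlapped control. At 320 DDIT4 had 175, 173 and 174 with Li-doped and 187, 168 and 186 with undoped Ag2S NPs, below every control library. DDIT4 fell at 320 with Li-doped (-0.67 ± 0.07, adjusted p = 1.12e-05) and undoped Ag2S NPs (-0.62 ± 0.07, adjusted p = 2.28e-05, limma). At 160 the values were -0.05 ± 0.11, adjusted p = 0.681 with Li-doped and -0.30 ± 0.11, adjusted p = 0.0566 with undoped Ag2S NPs (limma), the undoped one passing when either replicate 5 or 10 was left out (log2 fold change -0.39 to -0.30, adjusted p 0.0277 to 0.0409). Of its exon bases 41.2% are shared with the antisense gene DDIT4-AS1, which was not analysed here.

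Of the secreted factors, GDF15, a stress hormone that signals through the receptor GFRAL, was near 0 outside a single group. It had 16.4, 10.1 and 10.8 FPKM with Li-doped Ag2S NPs at 160, and was listed at 0, 0.33 and 0.38 with undoped Ag2S NPs at 160, against 0.49, 0.24 and 0.22 in control. At 320 it was listed at 0.09, 0.16 and 0.27 with Li-doped and 0.72, 0.35 and 0 with undoped Ag2S NPs. The log2 fold change with Li-doped Ag2S NPs at 160 was 4.94 ± 0.55, adjusted p = 1.78e-05 (limma), and GDF15 was below the filter at 320. STC2, a secreted glycoprotein that restrains growth signals, had 36.8, 29.9 and 24 FPKM with Li-doped and 1.87, 2.4 and 1.59 with undoped Ag2S NPs at 160, against 2.77, 3.18 and 3.1 in control. At 320 STC2 had 3.57, 2.79 and 1.67 with Li-doped and 1.9, 1.91 and 2.36 with undoped Ag2S NPs. STC2 rose by 3.26 ± 0.19, adjusted p = 1.02e-07 with the doped particle at 160 (limma) and was at -0.23 ± 0.25, adjusted p = 0.446 with the doped particle at 320 (limma). Its fall with undoped Ag2S NPs at 160 (-0.62 ± 0.19, adjusted p = 0.026, limma) did not pass when any 1 of replicates 2, 3, 4 and 6 was left out (log2 fold change -0.60 to -0.49, adjusted p 0.0523 to 0.0786). VLDLR, a lipoprotein receptor, was below the filter in every comparison and had 1.65, 1.45 and 0.95 FPKM with Li-doped and 0.14, 0.1 and 0.05 with undoped Ag2S NPs at 160, against 0.17, 0.4 and 0.06 in control. At 320 VLDLR had 0.12, 0.32 and 0.1 with Li-doped and 0.32, 0.26 and 0.23 with undoped Ag2S NPs. Its doped libraries at 160 lay above all others, with a log2 fold change of 2.35 ± 0.42 in the fit without a filter (limma adjusted p = 0.00145).

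Of the 9 amino acid transporters, 7 rose with Li-doped Ag2S NPs at 160, and SLC1A5, SLC1A4 and SLC7A1 rose with both particles at both doses. SLC7A11, the cystine importer xCT that supplies glutathione synthesis, had 20.4, 16.3 and 16.7 FPKM with Li-doped and 0.99, 0.92 and 1.03 with undoped Ag2S NPs at 160, against 0.86, 0.36 and 2.16 in control. At 320 it had 2.62, 3.52 and 1.31 FPKM with Li-doped and 0.94, 0.68 and 1.07 with undoped Ag2S NPs, and both overlapped control. It rose by 4.16 ± 0.44, adjusted p = 1.17e-05 with the doped particle at 160 (limma). At 320 its value of 1.27 ± 0.52, adjusted p = 0.0523 (limma) missed the threshold and passed when either replicate 3 or 15 was left out (log2 fold change 1.65 to 1.85, adjusted p 0.00644 to 0.0226). SLC3A2 (4F2hc), the heavy chain that partners both SLC7A11 and SLC7A5, had 984, 949 and 1010.4 FPKM with Li-doped and 199.96, 231 and 236 with undoped Ag2S NPs at 160, against 224, 222 and 219 in control. At 320 SLC3A2 had 365, 334 and 383 with Li-doped and 279, 299 and 319 with undoped Ag2S NPs. The rise was 2.14 ± 0.07, adjusted p = 2.42e-09 at 160 and 0.70 ± 0.07, adjusted p = 8.37e-06 at 320 with Li-doped Ag2S NPs (limma). With undoped Ag2S NPs the log2 fold change was -0.0018 ± 0.07, adjusted p = 0.986 at 160 and 0.43 ± 0.07, adjusted p = 0.000368 at 320 (limma). SLC7A5 (LAT1), the leucine and large neutral amino acid exchanger and the member with the highest mean FPKM in every group, had 1297, 1238 and 1468 FPKM with Li-doped and 319.7, 331 and 315 with undoped Ag2S NPs at 160, against 367, 369 and 366 in control. At 320 SLC7A5 had 432, 414 and 407 with Li-doped and 451, 460.0 and 462 with undoped Ag2S NPs. Its log2 fold changes with Li-doped Ag2S NPs were 1.86 ± 0.07, adjusted p = 5.24e-09 at 160 and 0.19 ± 0.05, adjusted p = 0.00906 at 320 (limma), and with undoped Ag2S NPs -0.19 ± 0.07, adjusted p = 0.0555 at 160 and 0.32 ± 0.05, adjusted p = 0.000397 at 320 (limma). The undoped value at 160 passed when replicate 12 was left out (log2 fold change -0.19, adjusted p = 0.0175).

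SLC1A5 (ASCT2), the main glutamine importer, had 431, 422 and 489.8 FPKM with Li-doped and 205, 206 and 201 with undoped Ag2S NPs at 160, against 146, 144 and 144 in control. At 320 SLC1A5 had 252, 227 and 274 with Li-doped and 206, 221 and 229 with undoped Ag2S NPs. Of its exon bases 23.8% are shared with other genes, mostly AC008622.2 on the opposite strand, which was not analysed here. The part of their reads in the SLC1A5 values was not tested. SLC1A5 rose in all 4 treated groups, by 1.62 ± 0.07, adjusted p = 8.52e-09 with Li-doped and 0.49 ± 0.07, adjusted p = 0.000383 with undoped Ag2S NPs at 160 (limma). At 320 it rose by 0.79 ± 0.07, adjusted p = 5.13e-06 with Li-doped and 0.59 ± 0.07, adjusted p = 5.16e-05 with undoped Ag2S NPs (limma). SLC1A4 (ASCT1), which carries serine, alanine and threonine, did not follow this order. It had 50.98, 53.6 and 59.7 FPKM with Li-doped and 63.2, 65.4 and 70.5 with undoped Ag2S NPs at 160, against 29.3, 28.5 and 25.9 in control. At 320 SLC1A4 had 64.6, 64.8 and 65.96 with Li-doped and 66.7, 67.4 and 66.7 with undoped Ag2S NPs. Its log2 fold changes were 0.97 ± 0.08, adjusted p = 2.35e-06 with Li-doped and 1.25 ± 0.08, adjusted p = 3.52e-06 with undoped Ag2S NPs at 160 (limma). They were 1.22 ± 0.06, adjusted p = 6.63e-08 with Li-doped and 1.26 ± 0.06, adjusted p = 5.51e-08 with undoped Ag2S NPs at 320 (limma). SLC7A1 (CAT1), the arginine and lysine importer, had 89.5, 96.7 and 101 FPKM with Li-doped and 94.8, 84.3 and 75.2 with undoped Ag2S NPs at 160, against 54.8, 52.8 and 54.9 in control. At 320 SLC7A1 had 111, 117 and 105 with Li-doped and 118, 112 and 106 with undoped Ag2S NPs. It also rose in every treated group, by 0.82 ± 0.09, adjusted p = 1.13e-05 with Li-doped and 0.64 ± 0.09, adjusted p = 0.000401 with undoped Ag2S NPs at 160 (limma). At 320 the rise was 1.03 ± 0.06, adjusted p = 2.58e-07 with Li-doped and 1.05 ± 0.06, adjusted p = 2.36e-07 with undoped Ag2S NPs (limma). SLC1A4 and SLC1A5 have the core element in a promoter window and SLC7A1 the looser form, while CHAC1 (core) and ASNS (looser form) had the far larger log2 fold changes with the doped particle at 160.

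**Figure D4:**
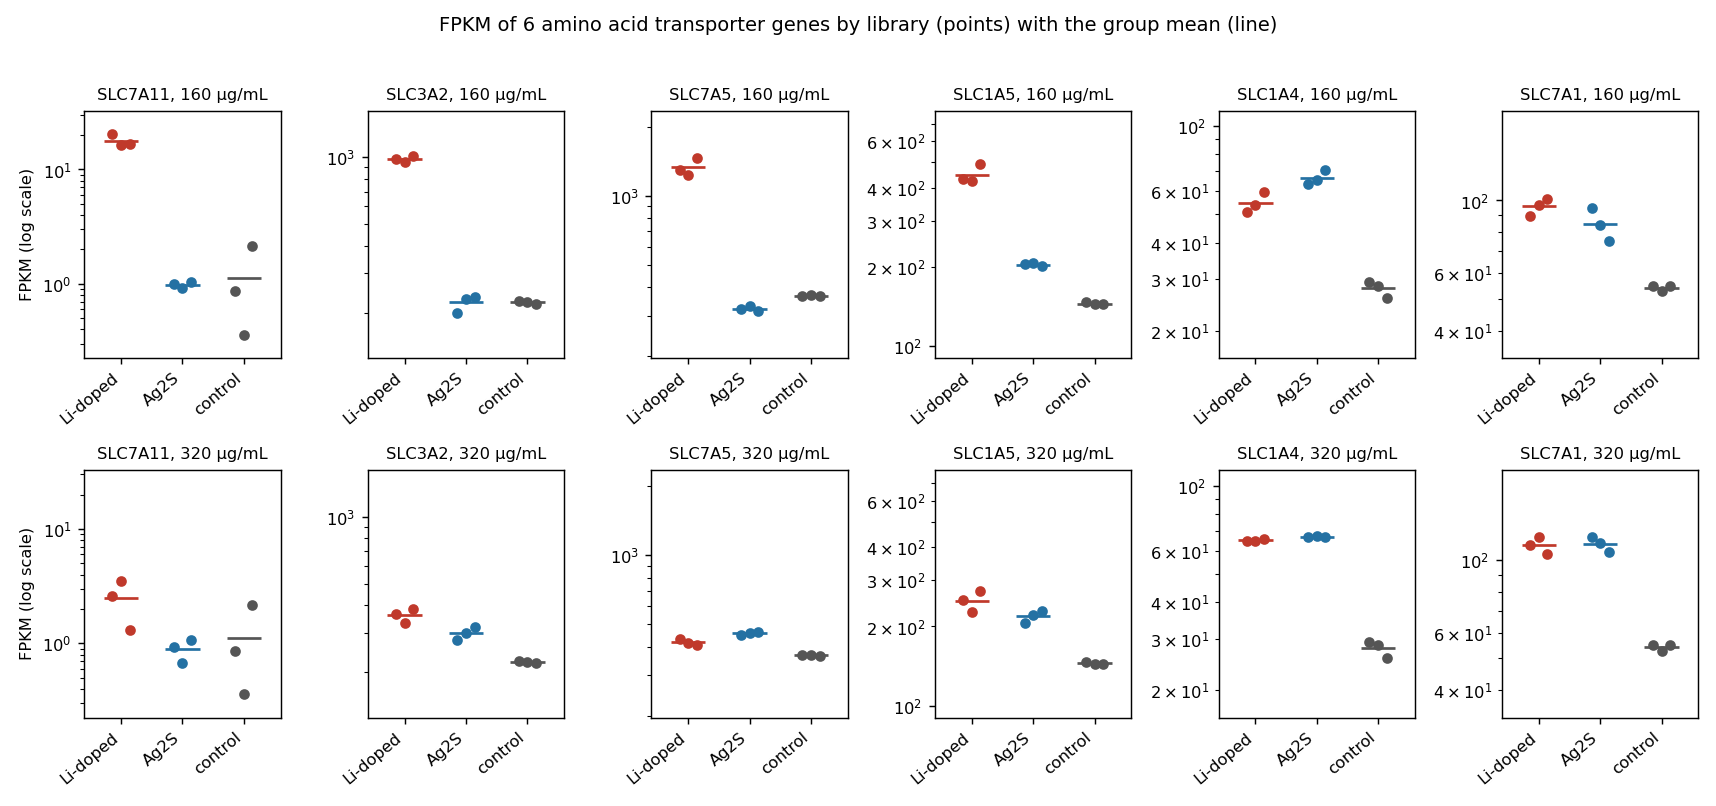
FPKM (log scale) of SLC7A11, SLC3A2, SLC7A5, SLC1A5, SLC1A4 and SLC7A1 in each library (points) with the group mean (line), for Li-doped Ag2S NPs, undoped Ag2S NPs and control, at 160 μg/mL (upper row) and 320 μg/mL (lower row); the control libraries are the same in both rows. The first 4 genes are highest with Li-doped Ag2S NPs at 160, while SLC1A4 and SLC7A1 lie above control in every treated group.

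SLC43A1 (LAT3), a leucine transporter of low level here, had 6.31, 5.48 and 4.86 FPKM with Li-doped and 1.99, 1.53 and 0.79 with undoped Ag2S NPs at 160, against 0.38, 1.19 and 0.79 in control. At 320 SLC43A1 had 2.88, 2.08 and 1.77 with Li-doped and 0.95, 0.79 and 0.99 with undoped Ag2S NPs. It rose with Li-doped Ag2S NPs by 2.78 ± 0.39, adjusted p = 0.000101 at 160 and 1.49 ± 0.35, adjusted p = 0.00377 at 320 (limma). SLC38A2 (SNAT2), a glutamine and alanine importer that is a classic target in starved cells, changed little. It had 287, 318 and 305 FPKM with Li-doped and 265, 238 and 180.3 with undoped Ag2S NPs at 160, against 246, 249.5 and 251 in control. At 320 SLC38A2 had 260.4, 293 and 213 with Li-doped and 225, 202 and 183 with undoped Ag2S NPs. The doped value at 160, 0.29 ± 0.12, adjusted p = 0.0519 (limma), missed the threshold and passed it after scaling (0.47, adjusted p = 0.00286) and when either replicate 4 or 6 was left out (log2 fold change 0.29, adjusted p 0.00184 to 0.0241). Its fall with undoped Ag2S NPs at 320 (-0.30 ± 0.11, adjusted p = 0.0375, limma) did not pass when any 1 of replicates 1, 2, 3, 8 and 9 was left out (log2 fold change -0.30 to -0.22, adjusted p 0.0766 to 0.143), nor after scaling. SLC6A9 (GLYT1), a glycine importer, was the 1 transporter that fell at 160 with Li-doped Ag2S NPs. It had 38.4, 38.5 and 46.7 FPKM with Li-doped and 38.6, 38.97 and 36.9 with undoped Ag2S NPs at 160, against 54.1, 51.7 and 55.3 in control. At 320 SLC6A9 had 47.6, 47.7 and 49.3 with Li-doped and 24.3, 24.01 and 24.6 with undoped Ag2S NPs. The largest fall was with undoped Ag2S NPs at 320 (-1.14 ± 0.06, adjusted p = 7.64e-08, limma). With Li-doped Ag2S NPs the values were -0.39 ± 0.08, adjusted p = 0.00218 at 160 and -0.16 ± 0.06, adjusted p = 0.0444 at 320 (limma), and neither passed after scaling, where the 320 value turned to 0.10 (adjusted p = 0.237). The 320 call was also lost when any 1 of replicates 1, 2, 3, 7, 8, 9, 13 and 14 was left out (log2 fold change -0.18 to -0.13, adjusted p 0.0554 to 0.142).

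The genes of amino acid enzymes and tRNA export rose with Li-doped Ag2S NPs at 160, 7 of 7 with CBS and 6 of 6 without it. ASNS, asparagine synthetase, had 213, 209.6 and 197 FPKM with Li-doped and 11.99, 10.8 and 11.3 with undoped Ag2S NPs at 160, against 5.97, 7.7 and 7.2 in control. At 320 ASNS had 41.3, 35.4 and 34.4 with Li-doped and 17.9, 15.8 and 15.3 with undoped Ag2S NPs. The 4 treated groups did not overlap control, and the doped groups lay above the undoped ones at each dose. The ratio of mean FPKM to control was 29.7 with Li-doped and 1.63 with undoped Ag2S NPs at 160, and 5.32 with Li-doped and 2.35 with undoped Ag2S NPs at 320. The log2 fold changes were 4.88 ± 0.10, adjusted p = 6.11e-11 with Li-doped and 0.70 ± 0.10, adjusted p = 0.000511 with undoped Ag2S NPs at 160 (limma). At 320 they were 2.40 ± 0.12, adjusted p = 3.48e-08 with Li-doped and 1.22 ± 0.12, adjusted p = 7.98e-06 with undoped Ag2S NPs (limma). ASNS (chr7:97852118-97872542) shares 44.6% of its exon bases with an annotated gene on the same strand that was listed at a mean of 0.317 FPKM or less in every group.

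PYCR1, which makes proline in mitochondria, had 53.9, 51.6 and 61.4 FPKM with Li-doped and 7.73, 7.34 and 8.88 with undoped Ag2S NPs at 160, against 4.61, 8.12 and 5.58 in control. At 320 PYCR1 had 16.4, 13.7 and 19.1 with Li-doped and 8.55, 7.27 and 7.84 with undoped Ag2S NPs. It rose with the doped particle, by 3.20 ± 0.18, adjusted p = 7.92e-08 at 160 and 1.44 ± 0.19, adjusted p = 7.9e-05 at 320 (limma). The undoped values, 0.42 ± 0.18, adjusted p = 0.0889 at 160 and 0.40 ± 0.19, adjusted p = 0.0977 at 320 (limma), both passed without replicate 2 (0.64 and 0.62, adjusted p = 0.0094 and 0.0109). PYCR1 shares 29.7% of its exon bases with other genes. These are AC145207.4 on the opposite strand, which was not analysed here, and MYADML2, with a mean of 0.093 FPKM or less in every group. The part of their reads in the PYCR1 values was not tested. ALDH18A1, which acts upstream of PYCR1 in proline synthesis, hardly changed and ranged over 26.1 to 28.4 FPKM with Li-doped and 21.3 to 24.01 with undoped Ag2S NPs at 160, against 20.03 to 23.9 in control. Its small rise with Li-doped Ag2S NPs at 160 (0.28 ± 0.09, adjusted p = 0.017, limma) was lost when either replicate 3 or 12 was left out (log2 fold change 0.21 to 0.24, adjusted p 0.0559 to 0.0797). At 320 with Li-doped Ag2S NPs it was at -0.02 ± 0.08, adjusted p = 0.851 (limma), which became a rise after scaling (0.24, adjusted p = 0.0271).

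CTH and CBS, the enzymes that turn homocysteine into cysteine, were of low level. CTH had 6.98, 8.08 and 5.74 FPKM with Li-doped and 1.59, 1.37 and 1.23 with undoped Ag2S NPs at 160, against 2.14, 2.16 and 1.73 in control. At 320 CTH had 1.84, 1.9 and 1.43 with Li-doped and 1.44, 1.6 and 2.05 with undoped Ag2S NPs. CBS had 2.6, 3.8 and 2.94 FPKM with Li-doped and 0.54, 0.28 and 0.39 with undoped Ag2S NPs at 160, against 0.3, 0.85 and 0.84 in control. At 320 CBS had 1.53, 0.84 and 0.73 with Li-doped and 0.94, 0.42 and 0.47 with undoped Ag2S NPs. Both rose with the doped particle at 160, CTH by 1.73 ± 0.19, adjusted p = 1.73e-05 and CBS by 2.16 ± 0.39, adjusted p = 0.000607 (limma). CBS is uncertain because a near-identical copy, CBSL, averaged 2.32 FPKM with Li-doped and 0.73 with undoped Ag2S NPs at 160 and 0.75 in control. At 320 CTH was at -0.21 ± 0.22, adjusted p = 0.411 with Li-doped Ag2S NPs (limma), and CBS was below the filter. GPT2, a mitochondrial alanine transaminase, had 23.5, 20.2 and 22.8 FPKM with Li-doped and 6.53, 7.18 and 5.42 with undoped Ag2S NPs at 160, against 7.89, 7.76 and 7.46 in control. At 320 GPT2 had 7.64, 8.89 and 7.06 with Li-doped and 5.57, 6.42 and 5.7 with undoped Ag2S NPs. It rose by 1.51 ± 0.12, adjusted p = 1.23e-06 with the doped particle at 160 (limma). Its fall with undoped Ag2S NPs at 320 (-0.38 ± 0.12, adjusted p = 0.0218, limma) did not pass when any 1 of replicates 1, 2, 7 and 9 was left out (log2 fold change -0.38 to -0.34, adjusted p 0.0602 to 0.0678), nor after scaling. XPOT, which exports tRNA from the nucleus, had 76.8, 82.6 and 71.4 FPKM with Li-doped and 25.9, 20.2 and 18.8 with undoped Ag2S NPs at 160, against 19.4, 19.2 and 19.97 in control. At 320 XPOT had 30.1, 28.9 and 22.6 with Li-doped and 26.7, 20.9 and 20.4 with undoped Ag2S NPs. XPOT rose by 1.97 ± 0.11, adjusted p = 1.03e-07 at 160 and 0.46 ± 0.13, adjusted p = 0.00777 at 320 with Li-doped Ag2S NPs (limma).

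The particles were then compared with each other at matched doses, which leaves the control libraries out of the difference. At 160, 26 of 32 tested members were higher and 3 lower with Li-doped than with undoped Ag2S NPs (median log2 difference 1.81), where 21.4% of all genes were higher and 29% lower. After scaling, 27 were higher and 2 lower, where 23.3% and 26.6% of all genes were. Without GDF15 and CBS the counts were 24 and 3 of 30. CHAC1 (5.68 ± 0.21, adjusted p = 1.08e-08), GDF15 (5.48 ± 0.55, adjusted p = 1.44e-05), ASNS (4.18 ± 0.10, adjusted p = 6.19e-10), SLC7A11 (4.04 ± 0.44, adjusted p = 2.52e-05) and STC2 (3.88 ± 0.19, adjusted p = 6.91e-08) led the differences (limma). Lower with the doped particle were ATF5 (-1.63 ± 0.10, adjusted p = 2.97e-07), NUPR1 (-0.81 ± 0.15, adjusted p = 0.00127) and SLC1A4 (-0.28 ± 0.08, adjusted p = 0.0167, limma). The SLC1A4 difference did not pass when either replicate 10 or 11 was left out (log2 fold change -0.26 to -0.23, adjusted p 0.0502 to 0.0682), nor after scaling. ALDH18A1 was higher by 0.25 ± 0.09, adjusted p = 0.0376 (limma), a call lost when any 1 of replicates 1, 4, 5, 10, 11 and 12 was left out (log2 fold change 0.20 to 0.27, adjusted p 0.0545 to 0.125). The members that missed the threshold at 160 were DDIT4, SLC7A1 and SLC6A9, with differences of 0.24 (95% interval 0.00 to 0.48), 0.18 (-0.01 to 0.37) and 0.10 (-0.08 to 0.29). DDIT4 passed when replicate 5 was left out (log2 fold change 0.33, adjusted p = 0.0324), and SLC7A1 did so when replicate 4 was left out (log2 fold change 0.27, adjusted p = 0.0206).

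At 320 the same comparison gave a smaller median difference, and no member was called lower with the doped particle. Of 30 tested members, 16 were higher and 0 lower with Li-doped than with undoped Ag2S NPs (median log2 difference 0.36), where 10.1% of all genes were higher and 16.1% lower. After scaling, 17 were higher and 0 lower, where 12.1% and 12.1% of all genes were. Without SLC43A1, which passed the filter through the Li-doped libraries only, 15 of 29 were higher (median 0.32). At an unadjusted p under 0.05 from limma, 1 member was lower, SLC7A5 (-0.13 ± 0.05, adjusted p = 0.0806). Leaving out 1 library at a time moved the count of higher members between 12 and 19, and it was 19 without replicate 15. CHAC1 (2.51 ± 0.21, adjusted p = 2.77e-05), ASNS (1.17 ± 0.12, adjusted p = 7.63e-05), PYCR1 (1.04 ± 0.19, adjusted p = 0.00329) and SLC6A9 (0.99 ± 0.06, adjusted p = 2.66e-06) were among the largest (limma). ATF5 (0.49 ± 0.08, adjusted p = 0.0012) and NUPR1 (0.87 ± 0.21, adjusted p = 0.0137), lower with the doped particle at 160, were higher with it at 320 (limma). The NUPR1 difference did not pass when replicate 7 was left out (log2 fold change 0.65, adjusted p = 0.0506). SLC43A1 (1.19 ± 0.35, adjusted p = 0.03, limma) did not pass when any 1 of replicates 7, 8, 9 and 13 was left out (log2 fold change 1.00 to 1.25, adjusted p 0.0555 to 0.0938). GPT2 (0.41 ± 0.12, adjusted p = 0.0317, limma) was lost when any 1 of replicates 2, 7, 9, 13 and 14 was left out (log2 fold change 0.31 to 0.42, adjusted p 0.0502 to 0.107). SLC38A2 (0.32 ± 0.11, adjusted p = 0.0468, limma) was lost when any 1 of replicates 1, 2, 3, 8, 9, 13 and 14 was left out (log2 fold change 0.22 to 0.32, adjusted p 0.0662 to 0.145), and SLC3A2 (0.27 ± 0.07, adjusted p = 0.0151, limma) when replicate 7 was left out (log2 fold change 0.22, adjusted p = 0.0656). SLC7A11 (1.29 ± 0.52, adjusted p = 0.0878, limma) missed the threshold and passed when any 1 of replicates 2, 3 and 15 was left out (log2 fold change 1.29 to 1.67, adjusted p 0.0439 to 0.0488). STC2 (0.31 ± 0.25, adjusted p = 0.383, limma) passed when replicate 15 was left out (log2 fold change 0.60, adjusted p = 0.0466), XPOT (0.26 ± 0.13, adjusted p = 0.144, limma) when replicate 15 was left out (log2 fold change 0.39, adjusted p = 0.0283) and SLC1A5 (0.20 ± 0.07, adjusted p = 0.0669, limma) when replicate 14 was left out (log2 fold change 0.27, adjusted p = 0.0157). SLC7A1, SLC1A4, CEBPG and PPP1R15A differed by -0.01 (95% interval -0.16 to 0.13), -0.04 (-0.18 to 0.10), 0.01 (-0.21 to 0.24) and -0.04 (-0.21 to 0.13).

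With the doped particle, most of the set was lower at the higher dose. Between 320 and 160 of Li-doped Ag2S NPs, in 1 fit of all 15 libraries, 25 of 32 tested members were lower and 5 higher at 320 (median log2 difference -1.36), where 23.3% of all 11952 genes were lower and 19.6% higher. After scaling, 25 were lower and 5 higher, where 19.6% and 22.8% of all genes were. Without GDF15, which passed this filter through a single group, 24 of 31 were lower. CBS is still counted among these. Its mean of 1.16 FPKM over 15 libraries reached the filter through Li-doped Ag2S NPs at 160 (3.11, against 1.03 or less elsewhere). The largest drops were those of GDF15 (-5.54 ± 0.69, adjusted p = 1.39e-05), STC2 (-3.49 ± 0.24, adjusted p = 2.21e-08), CHAC1 (-2.89 ± 0.21, adjusted p = 4.62e-08), SLC7A11 (-2.89 ± 0.44, adjusted p = 8.56e-05), ASNS (-2.48 ± 0.10, adjusted p = 9.5e-11) and DDIT3 (-2.40 ± 0.10, adjusted p = 6.67e-11, limma). ATF4 itself was lower by a smaller amount (-0.56 ± 0.07, adjusted p = 2.21e-05, limma). All 6 regulators and all 7 genes of enzymes and tRNA export were lower at 320. ATF5 (1.07 ± 0.09, adjusted p = 2.02e-07), NUPR1 (0.83 ± 0.20, adjusted p = 0.00337), SLC1A4 (0.25 ± 0.07, adjusted p = 0.0105), SLC6A9 (0.23 ± 0.08, adjusted p = 0.0216) and SLC7A1 (0.21 ± 0.08, adjusted p = 0.0476) were higher at 320 (limma). Only 2 were called higher without replicate 10, 3 without replicate 11 and 4 without replicate 15. SLC1A4 was lost when replicate 10 was left out (log2 fold change 0.20, adjusted p = 0.0555), SLC6A9 when any 1 of replicates 10, 11 and 15 was left out (log2 fold change 0.18 to 0.22, adjusted p 0.0541 to 0.0977) and SLC7A1 when any 1 of replicates 1, 2, 3, 5, 7, 8, 9, 10, 11, 13 and 14 was left out (log2 fold change 0.16 to 0.22, adjusted p 0.0523 to 0.174). JDP2 and SLC38A2 missed the threshold (-0.13 ± 0.10, adjusted p = 0.302 and -0.26 ± 0.13, adjusted p = 0.118, limma), the SLC38A2 value passing when either replicate 6 or 14 was left out (log2 fold change -0.37 to -0.26, adjusted p 0.043 to 0.0491).

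Undoped Ag2S NPs showed no such drop. Between 320 and 160, 5 members were higher and 5 lower of 32 tested (median 0.07), where 4.84% of all genes were higher and 7.68% lower. After scaling, 7 were higher and 4 lower, where 6.57% and 5.2% of all genes were. Higher at 320 were ATF3 (0.70 ± 0.13, adjusted p = 0.00221), ASNS (0.52 ± 0.10, adjusted p = 0.00387), SLC7A5 (0.51 ± 0.06, adjusted p = 0.000109), SLC3A2 (0.43 ± 0.08, adjusted p = 0.00182) and SLC7A1 (0.41 ± 0.08, adjusted p = 0.00447, limma). Lower were ATF5 (-1.06 ± 0.09, adjusted p = 2.38e-06), NUPR1 (-0.85 ± 0.20, adjusted p = 0.0113), SLC6A9 (-0.65 ± 0.08, adjusted p = 5.55e-05), SESN2 (-0.63 ± 0.09, adjusted p = 0.000283) and DDIT4 (-0.33 ± 0.10, adjusted p = 0.0393, limma). Without replicate 7 only 3 were lower, since NUPR1 and DDIT4 did not pass (adjusted p = 0.0564 and 0.0717). DDIT4 was lost when any 1 of replicates 1, 4, 5, 7, 8, 9 and 13 was left out (log2 fold change -0.35 to -0.23, adjusted p 0.0517 to 0.153) and after scaling.

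**Figure D5:**
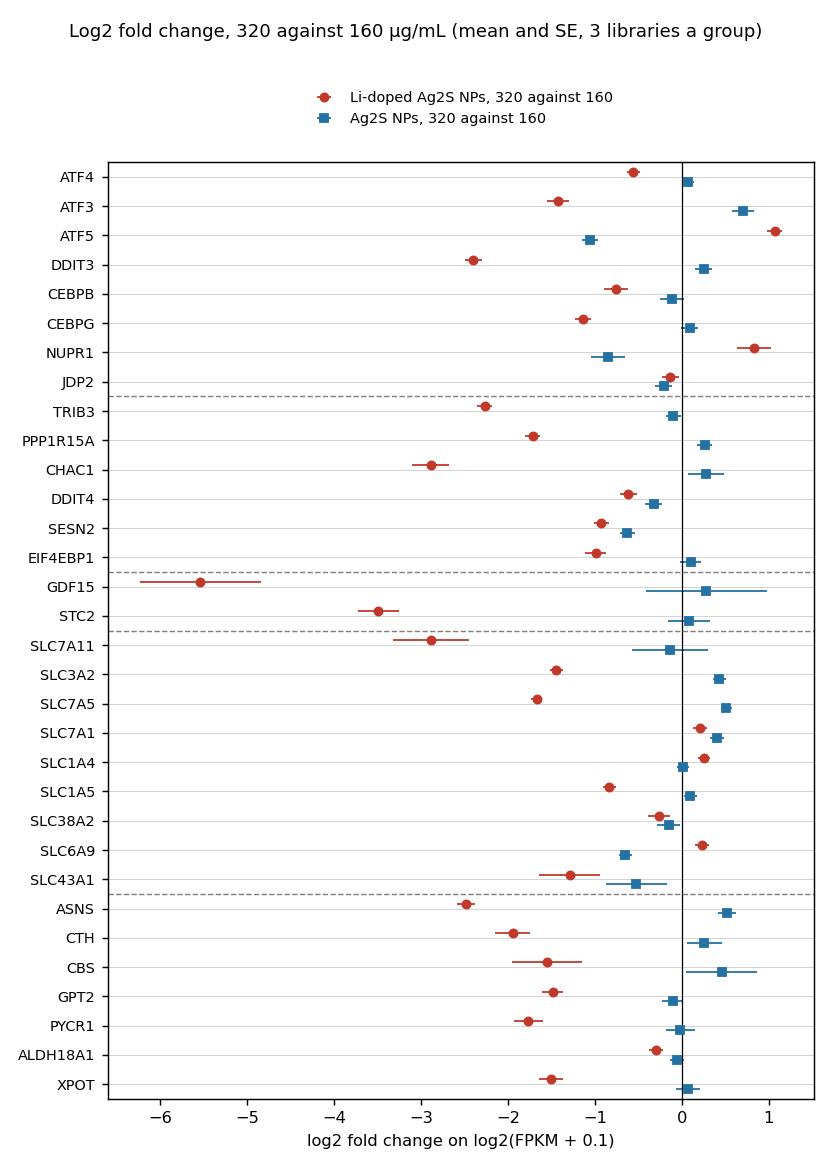
Log2 fold change of each tested member between 320 and 160 μg/mL on log2(FPKM + 0.1), with the standard error from limma, for Li-doped Ag2S NPs (red circles) and undoped Ag2S NPs (blue squares); dashed lines separate the roles. The Li-doped points of 25 members lie left of 0 past the test, down to -5.54 for GDF15, while the undoped points stay between -1.06 (ATF5) and 0.70 (ATF3).

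The difference between these dose effects was itself tested as the interaction of dose and doping. A negative value means a lower log2 change from 160 to 320 with the doped than with the undoped particle, whatever the direction of each. The interaction was negative for 21 of 32 tested members and positive for 3, where 19.5% and 20.2% of all genes were called in these directions. Without GDF15, which passed the filter through a single group, 20 of 31 were negative and 3 positive. CBS, whose mean of 1.16 FPKM reached the filter through Li-doped Ag2S NPs at 160, is still among the negative members. The counts over 32 members were also 21 and 3 after scaling, where 19.3% and 20.7% of all genes were called, and without replicate 15. ATF4 (-0.63 ± 0.10, adjusted p = 0.000212), DDIT3 (-2.65 ± 0.14, adjusted p = 1.49e-09) and CHAC1 (-3.17 ± 0.30, adjusted p = 9.33e-07) were negative, and ATF5 (2.13 ± 0.13, adjusted p = 7.5e-09), NUPR1 (1.68 ± 0.28, adjusted p = 0.000236) and SLC6A9 (0.88 ± 0.11, adjusted p = 1.22e-05) positive (limma). For JDP2 (0.08 ± 0.14, adjusted p = 0.701), DDIT4 (-0.29 ± 0.14, adjusted p = 0.107), SESN2 (-0.30 ± 0.12, adjusted p = 0.0688), SLC7A1 (-0.19 ± 0.12, adjusted p = 0.197), SLC1A4 (0.24 ± 0.10, adjusted p = 0.0763), SLC38A2 (-0.11 ± 0.18, adjusted p = 0.665), SLC43A1 (-0.76 ± 0.50, adjusted p = 0.24) and ALDH18A1 (-0.25 ± 0.12, adjusted p = 0.101) it missed the threshold (limma). DDIT4 and SESN2 passed without replicate 5 (-0.38 and -0.36, adjusted p = 0.0348 and 0.0368), and SLC1A4 when replicate 12 was left out (log2 fold change 0.30, adjusted p = 0.0243).

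Genes around the set were read from a pair of further lists. Of 16 tested genes among the eIF2 kinases, the subunits of eIF2 and eIF2B and their partners, which act upstream of ATF4, 3 rose and 8 fell with Li-doped and 0 rose and 7 fell with undoped Ag2S NPs at 160 (scaled 5 and 6 with Li-doped, 0 and 3 with undoped). Of all genes, 22.6% rose and 40.6% fell with Li-doped and 11.5% rose and 23.8% fell with undoped Ag2S NPs at 160. At 320, 0 rose and 12 fell with Li-doped and 1 rose and 7 fell with undoped Ag2S NPs (scaled 2 and 4 with Li-doped, 3 and 5 with undoped). Of all genes, 17% rose and 44.6% fell with Li-doped and 16.2% rose and 36.2% fell with undoped Ag2S NPs at 320. The kinase gene EIF2AK2 (PKR) fell in all 4 treated groups, with 9.44, 8.04 and 7.94 FPKM with Li-doped and 12.6, 12.6 and 13.3 with undoped Ag2S NPs at 160, against 21.4, 19.7 and 18.1 in control (log2 fold change -1.21 ± 0.10, adjusted p = 2.1e-06 with Li-doped and -0.61 ± 0.10, adjusted p = 0.00142 with undoped Ag2S NPs, limma). EIF2S1 and EIF2S2, subunits of eIF2, rose with Li-doped Ag2S NPs at 160 (0.84 ± 0.12, adjusted p = 0.000154 and 0.61 ± 0.08, adjusted p = 4.67e-05, limma). DELE1, which relays mitochondrial stress to the eIF2 kinase HRI, fell by 0.90 with Li-doped and 0.46 with undoped Ag2S NPs at 160 (limma adjusted p = 2.5e-06 and 0.00161). EIF2B5 averaged 26.3 FPKM with Li-doped and 29.5 with undoped Ag2S NPs at 160, against 44.5 in control. At 320 it averaged 29.1 and 25.9, and all 4 treated groups lay below control without overlap. Of 10 tested genes among other ATF4-linked genes, 6 rose and 1 fell with Li-doped and 2 rose and 3 fell with undoped Ag2S NPs at 160 (scaled 8 and 1 with Li-doped, 3 and 3 with undoped). At 320, 4 rose and 6 fell with Li-doped and 2 rose and 5 fell with undoped Ag2S NPs (scaled 4 and 4 with Li-doped, 3 and 2 with undoped), to be read against the same shares of all genes. ADM2, a secreted peptide hormone, had 12.7, 11.4 and 10.8 FPKM with Li-doped and 0.73, 0.91 and 0.72 with undoped Ag2S NPs at 160, against 0.26, 0.31 and 0.19 in control. At 320 ADM2 had 2.8, 2.29 and 3.17 with Li-doped and 1.42, 1.02 and 1.34 with undoped Ag2S NPs. ADM2 is among the risen genes counted above, but it passed the filter at 160 only through the Li-doped libraries. Its means there were 11.7 with Li-doped, 0.787 with undoped Ag2S NPs and 0.253 in control. Counts of this list without ADM2 were not made. PCK2, mitochondrial phosphoenolpyruvate carboxykinase, rose by 1.73 ± 0.07, adjusted p = 5.03e-09 and VEGFA, the angiogenic growth factor, by 1.97 ± 0.27, adjusted p = 7.53e-05 with the doped particle at 160 (limma). VEGFA fell with undoped Ag2S NPs, with log2 fold changes of -0.89 ± 0.27, adjusted p = 0.0247 at 160 and -0.47 ± 0.16, adjusted p = 0.0338 at 320 (limma), and the 320 fall did not pass after scaling (-0.28, adjusted p = 0.125). KLHL24, an adaptor of a ubiquitin ligase, fell in all 4 treated groups, with log2 fold changes of -1.49 ± 0.13, adjusted p = 2.96e-06 with Li-doped and -0.51 ± 0.13, adjusted p = 0.0132 with undoped Ag2S NPs at 160 (limma). At 320 KLHL24 was at -1.11 ± 0.17, adjusted p = 0.000219 with Li-doped and -0.92 ± 0.17, adjusted p = 0.00102 with undoped Ag2S NPs (limma). LAMP3, a lysosomal membrane protein, was at -1.91 ± 0.19, adjusted p = 8.83e-06 with Li-doped and -0.94 ± 0.19, adjusted p = 0.00171 with undoped Ag2S NPs at 320 (limma).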

How the data were processed

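RNA of HaCaT cells was sequenced from both ends of each fragment in 15 libraries. The authors aligned reads with TopHat, estimated FPKM with Cufflinks 2.1.1 (corrected for multiply mapped reads and fragment bias), compared groups with Cuffdiff, and deposited FPKM per gene and library. Genome build, strand use and other versions were not given in the sources used here. Columns of group comparisons by the authors (fold changes, p-values and q-values) were not used. Per-library FPKM from the tables of 9 libraries, which list the same control values, was put on the scale log2(FPKM + 0.1). Genes whose mean reached 1 FPKM were tested (two-sided) by limma 3.58.1 under R 4.3.3, using lmFit and eBayes with a trend, with 1 fit per dose over 9 libraries and 1 over 15 libraries for dose and its interaction with doping. The adjustment of Benjamini and Hochberg ran over all genes tested, and adjusted p under 0.05 was called. Groups came from the sample labels. Alternatives were pseudocounts of 1 and 0.01, no filter, a minimum mean of 5 FPKM, median-ratio scaling, a robust fit, weights per library, only the groups compared, 1 fit of all 15 libraries, and leaving out each library. The fit was tested on simulated data. All 33 members are named, and of the eIF2 and other ATF4-linked lists only some genes. Members and lists were chosen with earlier results of these data known. Gene positions are those of GENCODE release 29 on GRCh38, and promoter letters those of RefSeq on GRCh38.p14. Cuffdiff on reads, the test of the study, could not be run on FPKM.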

Additional observations from a re-analysis of the deposited data

Results flagged for a closer look

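The effect of dose, 320 against 160 μg/mL, differed between Li-doped and undoped Ag2S NPs for 24 of the 32 tested members, by limma's test of the difference itself over 15 libraries. Without GDF15, which passed the filter only through Li-doped Ag2S NPs at 160, this held for 23 of 31. CBS, whose mean of 1.16 FPKM reached the filter through the same group, is still counted in the 23. The values are the log2 dose effect of Li-doped minus that of undoped Ag2S NPs. The most negative were GDF15 (-5.82), STC2 (-3.57), CHAC1 (-3.17), ASNS (-3.00), SLC7A11 (-2.75) and DDIT3 (-2.65). Next came CTH (-2.20), SLC7A5 (-2.18), TRIB3 (-2.17), ATF3 (-2.13), CBS (-2.01), PPP1R15A (-1.97), SLC3A2 (-1.87), PYCR1 (-1.75) and XPOT (-1.58). Smaller negative differences were those of GPT2 (-1.38), CEBPG (-1.23), EIF4EBP1 (-1.09), SLC1A5 (-0.93), CEBPB (-0.64) and ATF4 (-0.63). Positive differences, with a relatively higher level at 320 for the doped particle, were found for SLC6A9 (0.88), NUPR1 (1.68) and ATF5 (2.13). Groups of 3 libraries are too small for a test of single outlying libraries.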

How the results depend on the processing

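Pseudocounts of 1 and 0.01 and a robust fit turned no sign of a called member and moved no count of called members by over 1.5 times, and neither did no filter, a minimum mean of 5 FPKM or 1 fit of all 15 libraries for the comparisons within a dose. Scaling by median ratio reversed SLC6A9 (0.10, adjusted p = 0.237 from limma) and ALDH18A1 (0.24, adjusted p = 0.0271 from limma) for Li-doped Ag2S NPs at 320 against control, and left 3 members fallen there. Weights per library gave 10 members risen with undoped Ag2S NPs at 160. Fitting only the groups compared gave 3 members higher between doses of Li-doped Ag2S NPs and 3 lower between doses of undoped Ag2S NPs. The causes were not tested. Leaving out 1 library at a time, the members higher at 320 than at 160 numbered 2 to 5 with Li-doped Ag2S NPs and the members lower 3 to 5 with undoped Ag2S NPs, and members risen with Li-doped Ag2S NPs at 160 numbered 26 to 28. No paired analysis was possible because the replicate numbers in the labels run from 1 to 15 and no groups share one. The depth of the libraries is unknown, so members near 0, such as GDF15, VLDLR and CBS outside Li-doped Ag2S NPs at 160, have no limit from counting, and with 3 libraries a group small changes could be missed.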
